A study of Mus musculus with 8 samples.

Results

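The pre-B cell receptor and the first steps of its signalling were followed through 10 genes: the surrogate light chain genes Vpreb1, Vpreb2 and Igll1 with the related Vpreb3, the signalling chains Cd79a and Cd79b, the kinases Lyn, Syk and Btk, and the adaptor Blnk. They were picked by Ensembl gene ID and role, by a rule that used no measured value but was made with earlier results of these data known, out of 27835 genes on each array, and all 10 were present. The arrays came from mouse proB cell colonies, grown from bone marrow in a B cell methylcellulose medium and harvested after a week. There were 4 HMGN1-overexpressing and 4 wild-type samples, 1 Affymetrix array each. The overexpressing cells carry an HMGN1 transgene. HMGN1 is a nucleosome-binding protein. The transgene's promoter, the number of lines, the strain and age of the mice and the number of mice behind the samples are not given in the sources used here. If several samples came from 1 mouse, the p-values measure a spread that is in part technical.

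While a developing B cell has a rearranged heavy chain but no light chain yet, the products of Vpreb1 or Vpreb2 and of Igll1 (lambda 5) pair with the heavy chain in place of a light chain. The heterodimer of Cd79a and Cd79b (Ig-alpha and Ig-beta) carries the signal into the cell. There Lyn, a Src family kinase, and Syk phosphorylate the chains, and Blnk (SLP-65) gathers Btk and other effectors. This signal drives the expansion of pre-B cells and then helps to shut the surrogate light chain genes down.

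Values are RMA intensities on a linear scale. Array medians lay between 95.8 and 100.1, which the normalization keeps narrow. Wild-type replicate 3 stood apart among these genes: it was the lowest of the 8 arrays for 7 of the 10. Over all genes it was the lowest for 22.2%, and among the 6959 genes of highest mean signal, which hold 9 of the 10, for 37.4%. The median of those bright genes lay 0.049 below the gene means in this array on the log2 scale, against a range of -0.017 to 0.021 in the other arrays. The part of this shift in the results was not tested. Results are given with and without that array where it matters.

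The gene overexpressed by design, the markers of proB cells and the markers of other cell types were not checked, because the tables used here pair no gene ID but those of the 10 genes with a symbol. The B lineage label therefore rests here on Igll1, Vpreb3, Cd79a, Cd79b and Blnk alone, whose intensities lay between 1725 and 10851 on every array. The rows of the other surrogate light chain genes were lower. Vpreb2 read 774 to 1216.4, and Vpreb1 read 38.4 to 57.8, below the median of every array. Whether the colonies held cells of other types or stages was not measured, so fewer cells of a type and less RNA per cell cannot be told apart.

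Promoter windows from RefSeq (GRCm38.p6, 250 bases before to 50 after a start site) were found for 8 of the 10 genes, and not for Cd79b and Lyn. Igll1 and Vpreb1 are neighbouring coding genes on chromosome 16, and Vpreb2 lies elsewhere on it. Vpreb1 and Vpreb2 are close copies. The stretch below is shown because it is where the windows of these 2 genes aligned best without gaps. There 153 of 156 aligned bases were equal (98.1%), and the 3 capitals in each line mark the bases that differ. It lies at chr16:16869206-16869361 on the minus strand for Vpreb1 and at chr16:17980315-17980470 on the plus strand for Vpreb2.
Vpreb1: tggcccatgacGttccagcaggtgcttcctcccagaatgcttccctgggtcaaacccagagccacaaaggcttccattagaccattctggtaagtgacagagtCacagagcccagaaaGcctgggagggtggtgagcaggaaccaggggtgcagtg
Vpreb2: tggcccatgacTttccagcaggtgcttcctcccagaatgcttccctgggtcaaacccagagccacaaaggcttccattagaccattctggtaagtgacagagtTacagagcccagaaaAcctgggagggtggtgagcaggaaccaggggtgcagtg
For Vpreb2 the stretch lies wholly before the start site, and for Vpreb1 mostly so, and it does not measure how alike the transcripts are. Neither the transcripts nor the probe sequences were analysed here, so the values of Vpreb1 and Vpreb2 are uncertain as to which gene they read.

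The windows of Igll1 and Blnk are printed because Vpreb2 and Blnk had the profiles over the arrays most like that of Igll1, as described further on. Capitals mark every match on either strand to 4 motifs of B lineage factors: CCCNNGGG for the EBF1 core, CAGNTG for the E-box bound by E proteins, GGAAGT for Ets factors and TGGGAA for Ikaros. Igll1 lies at chr16:16863936-16864235 on the minus strand and Blnk at chr19:40994172-40994471 on the minus strand.
Igll1: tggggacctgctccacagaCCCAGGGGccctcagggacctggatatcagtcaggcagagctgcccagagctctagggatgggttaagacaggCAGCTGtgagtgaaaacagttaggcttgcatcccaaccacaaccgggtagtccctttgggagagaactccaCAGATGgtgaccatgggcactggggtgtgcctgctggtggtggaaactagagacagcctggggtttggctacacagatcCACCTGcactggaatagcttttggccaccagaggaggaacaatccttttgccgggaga
Blnk: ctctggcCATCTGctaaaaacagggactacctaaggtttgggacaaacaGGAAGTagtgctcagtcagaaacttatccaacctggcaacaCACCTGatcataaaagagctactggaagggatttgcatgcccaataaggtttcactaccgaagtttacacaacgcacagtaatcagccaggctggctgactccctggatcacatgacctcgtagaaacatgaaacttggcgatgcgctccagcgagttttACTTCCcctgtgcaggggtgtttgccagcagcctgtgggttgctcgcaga
The Igll1 window held 1 match to the EBF1 core and 3 to the E-box. The Blnk window held 2 to the E-box and 2 to the Ets motif. No motif match overlapped another in these windows; in that of Vpreb2, a TGGGAA match on the reverse strand overlapped 1 of its 2 E-boxes. Of 32851 windows of this length in the table, 13.7% held the EBF1 core, 51.4% the E-box, 23.8% the Ets motif and 25.6% the Ikaros motif. A match is a run of letters and not a measured binding site.

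The comparison asks whether these transcripts differ when HMGN1 is overexpressed. None of the 10 genes passed an adjusted p of 0.05 by limma with Benjamini-Hochberg adjustment over all genes, where 0.0144% of all genes did. At an unadjusted p under 0.05 there were 2 of the 10, Vpreb2 and Igll1, both with higher values in HMGN1-overexpressing colonies, where 5.83% of all genes were in that direction and 10.4% in either. In a fit of only the genes above the median signal, which hold 9 of the 10, the share in either direction was 14%. The sign of the log2 difference was positive for 5 of the 10, against 49.4% of all genes. The median log2 difference of the 10 was 0.02, against -0.0018 over all genes.

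**Figure D1:**
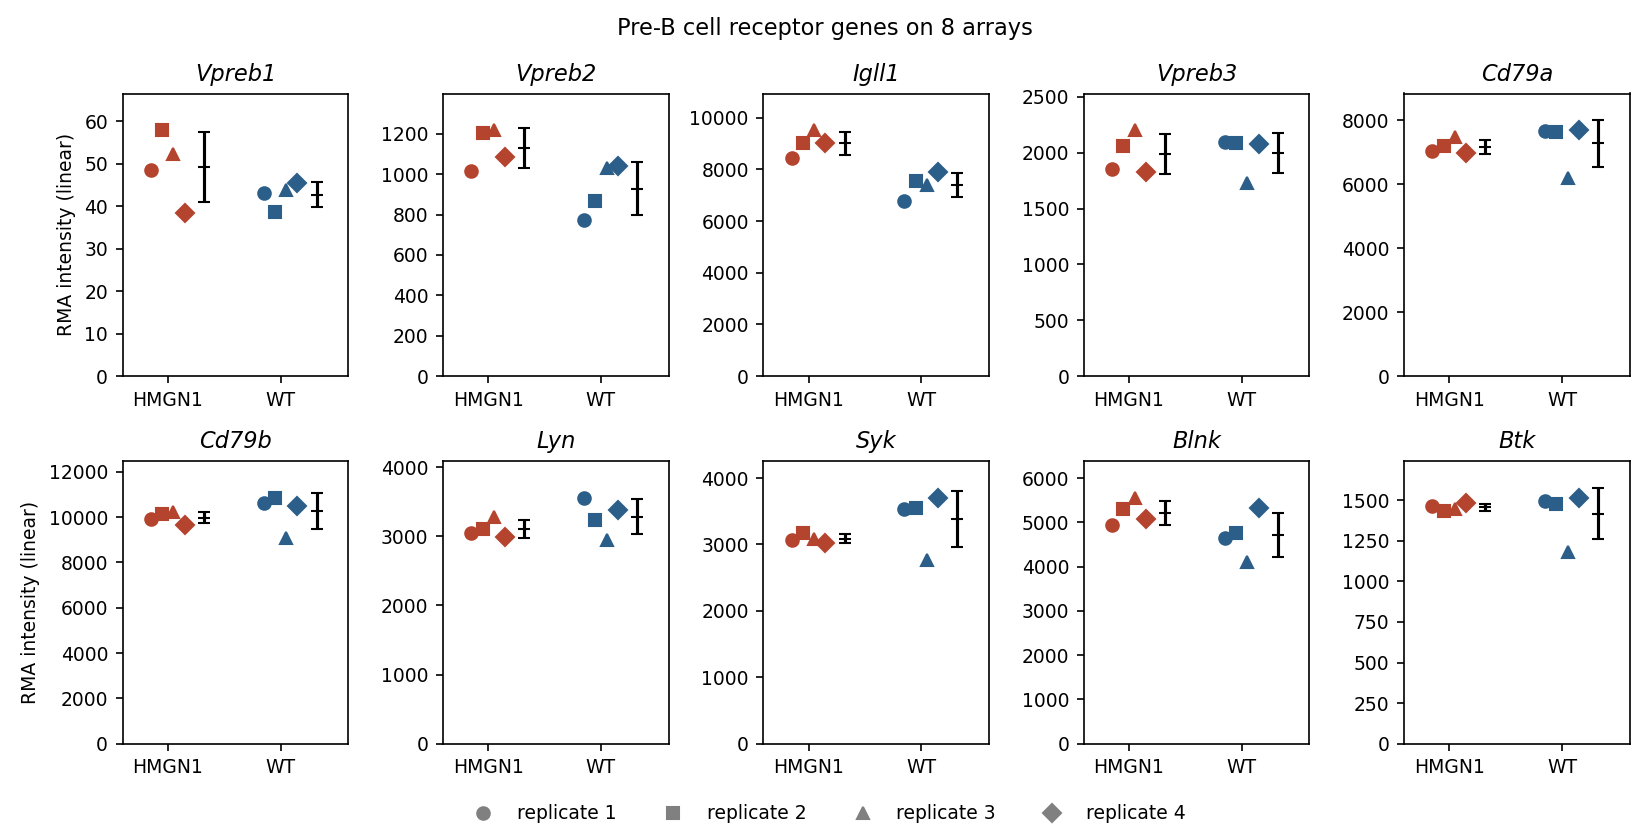
RMA intensity (linear, y axis from 0) of each gene in HMGN1-overexpressing (HMGN1, red) and wild-type (WT, blue) colonies, a symbol shape for each replicate number, with the mean and SD of 4 arrays as a bar beside them. Igll1 is the 1 gene whose groups do not overlap, and the WT replicate 3 triangle lies below the other WT points for Vpreb3, Cd79a, Cd79b, Lyn, Syk, Blnk and Btk.

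Igll1 (ENSMUSG00000075370_at), the constant-region-like chain of the surrogate light chain, showed the clearest separation. Its intensity was 8455, 9016, 9508 and 9023.5 in HMGN1-overexpressing replicates 1 to 4, against 6776, 7544, 7411 and 7902 in wild-type replicates 1 to 4. Every HMGN1-overexpressing array thus lay above every wild-type array. Of all genes, 4.15% were apart in that direction, and among the 6959 brightest 8.89%. The means were 9000.5 ± 430.5 and 7408.3 ± 469.5 (SD, n = 4 each), a 1.22-fold ratio with a 95% interval of 1.10 to 1.35. On the log2 scale Igll1 was higher by 0.28 (SE 0.067), which missed the threshold (limma adjusted p = 0.199). With wild-type replicate 3 left out the value was again 0.28 (limma adjusted p = 0.202). Since the groups were apart with all arrays, leaving out any single array cannot make them overlap.

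Vpreb2 (ENSMUSG00000059280_at), a variable-region-like chain, had a difference of the same size and a wider spread. It read 1015, 1204.5, 1216 and 1082 in HMGN1-overexpressing replicates 1 to 4, against 774, 867, 1031 and 1042 in wild-type replicates 1 to 4. The groups overlapped, since HMGN1 replicate 1 lay below wild-type replicates 3 and 4. The means were 1129.6 ± 97.5 and 928.5 ± 130.4 (SD, n = 4 each), and the log2 difference was 0.29 (SE 0.107, 95% interval 0.05 to 0.53, limma adjusted p = 0.384). Leaving out wild-type replicate 1, wild-type replicate 2, HMGN1 replicate 2 or HMGN1 replicate 3 gave values between 0.206 and 0.26 that were no longer at an unadjusted p under 0.05 by limma.

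The row of Vpreb1 (ENSMUSG00000059305_at), the other variable-region-like chain, was dim. It read 48.4, 57.8, 52.2 and 38.4 in HMGN1-overexpressing replicates 1 to 4, against 43.0, 38.5, 43.7 and 45.4 in wild-type replicates 1 to 4, below the median of every array. HMGN1 replicate 4 was the lowest of the 8 arrays and HMGN1 replicate 2 the highest, so the groups overlapped. Its log2 difference was 0.19 (SE 0.117, limma adjusted p = 0.602). Detection calls were not used here, so whether this row rises above background is unknown. With the mean log2 value of Vpreb1 and Vpreb2 taken as 1 value, the log2 difference was 0.24 (SE 0.099, limma adjusted p = 0.432). Without HMGN1 replicate 4, Vpreb1 was at 0.31, its groups did not overlap, and its limma adjusted p remained above the threshold.

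Vpreb3 (ENSMUSG00000000903_at), a VpreB-related protein that binds newly made immunoglobulin chains inside the cell, did not share the direction of these 3 genes. Its intensity was 1855.5, 2064, 2199.8 and 1829 in HMGN1-overexpressing replicates 1 to 4, against 2094, 2090.0, 1725 and 2080.0 in wild-type replicates 1 to 4. HMGN1 replicate 3 was the highest array and wild-type replicate 3 the lowest. Vpreb3 had a log2 difference of -0.01 (SE 0.089, 95% interval -0.21 to 0.19, limma adjusted p = 0.985). Its sign was not stable: with array medians subtracted it was 0.01.

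The 2 signalling chains had small log2 differences over all arrays, which were larger without wild-type replicate 3. Cd79a (ENSMUSG00000003379_at) read 7043, 7189, 7488.5 and 6990.3 in HMGN1-overexpressing replicates 1 to 4, against 7661, 7628, 6192 and 7689.5 in wild-type replicates 1 to 4. Cd79b (ENSMUSG00000040592_at) read 9935, 10149, 10218 and 9632 in HMGN1-overexpressing replicates 1 to 4, against 10609, 10851, 9082 and 10474 in wild-type replicates 1 to 4. In both genes the 4 HMGN1-overexpressing arrays lay below wild-type replicates 1, 2 and 4 and above wild-type replicate 3. The log2 difference was -0.02 for Cd79a (95% interval -0.20 to 0.16, limma adjusted p = 0.96). It was -0.04 for Cd79b (95% interval -0.19 to 0.12, limma adjusted p = 0.894). These intervals leave room for a ratio of 0.873 to 1.12 and of 0.877 to 1.09. With wild-type replicate 3 left out, the groups of both genes were apart. Cd79a was then at -0.09 (SE 0.054, limma adjusted p = 0.589) and Cd79b at -0.09 (SE 0.054, limma adjusted p = 0.594).

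Among the kinases, Syk (ENSMUSG00000021457_at) had the largest negative difference. It read 3060.1, 3176, 3089.7 and 3016 in HMGN1-overexpressing replicates 1 to 4, against 3535, 3546, 2766 and 3702 in wild-type replicates 1 to 4. The HMGN1-overexpressing arrays lay close together, below 3 wild-type arrays and above the other one. The means were 3085.6 ± 67.6 and 3387.4 ± 421.1 (SD, n = 4 each), with a log2 difference of -0.13 (SE 0.091, limma adjusted p = 0.666). Without wild-type replicate 3 the wild-type mean was 3594.5 ± 93.2 (SD, n = 3), the groups did not overlap, and the log2 difference was -0.22 (SE 0.054). That value did not pass either (limma adjusted p = 0.184).

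Lyn (ENSMUSG00000042228_at), which phosphorylates the signalling chains and also feeds inhibitory receptors, read 3046, 3105, 3282 and 2987 in HMGN1-overexpressing replicates 1 to 4. The wild-type values were 3556, 3234, 2953 and 3383 in replicates 1 to 4. The groups overlapped, with the lowest and the highest array both wild-type. The log2 difference was -0.08 (SE 0.070, limma adjusted p = 0.736) and, without wild-type replicate 3, -0.13 (limma adjusted p = 0.514).

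Btk (ENSMUSG00000031264_at), the Tec family kinase that acts on phospholipase C gamma 2, was the steadiest gene within the HMGN1-overexpressing group. It read 1463, 1432, 1447 and 1484 there in replicates 1 to 4, against 1498, 1478, 1180.3 and 1515 in wild-type replicates 1 to 4. Apart from wild-type replicate 3, all arrays lay within a narrow band. Its log2 difference was 0.05 (SE 0.084, limma adjusted p = 0.884) and turned to -0.04 without that array.

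Blnk (ENSMUSG00000061132_at), the adaptor that brings Btk to its substrate, leaned the other way from Syk and Lyn. It read 4937, 5291, 5552 and 5067 in HMGN1-overexpressing replicates 1 to 4, against 4654, 4760.0, 4108.5 and 5323 in wild-type replicates 1 to 4. The groups overlapped through wild-type replicate 4. The log2 difference was 0.15 (SE 0.083, 95% interval -0.04 to 0.34, limma adjusted p = 0.567). It was 0.09 without wild-type replicate 3 and 0.21 without wild-type replicate 4, and in the second case its groups did not overlap.

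**Figure D2:**
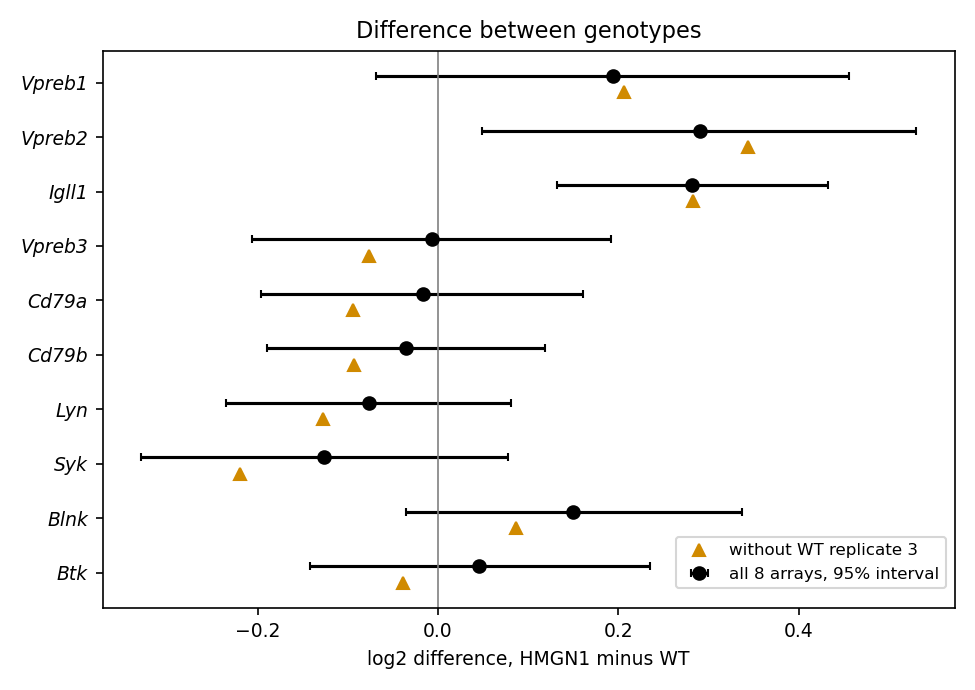
Log2 difference (x axis, HMGN1 minus WT) of each gene with all 8 arrays (black, 95% interval from limma) and without wild-type replicate 3 (orange). The interval lies above 0 for Vpreb2 and Igll1 and spans 0 for the other 8; without that array Btk moves below 0, and Vpreb3, Cd79a, Cd79b, Lyn and Syk move further below it.

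Without wild-type replicate 3, groups that did not overlap were found for 4 of the 10 genes. Igll1 was higher in HMGN1-overexpressing colonies, where 5.9% of all genes were apart in that direction. Cd79a, Cd79b and Syk were lower, where 5.37% of all genes and 7.33% of the 6959 brightest were apart in that direction. At an unadjusted p under 0.05 by limma, Igll1 and Vpreb2 were higher, where 5.37% of all genes were, and Syk was lower, where 5.55% were. No gene passed the adjusted threshold without that array, among the 10 or among all genes. Groups of 4 against 3 are apart more easily than groups of 4 against 4. Wild-type replicate 3 was singled out as the lowest array for 7 of the 10 genes, Cd79a, Cd79b and Syk among them. Leaving it out raises the wild-type mean of these genes and by itself moves their differences down. The shares over all genes, which were not picked in that way, are therefore not a like comparison. Leaving out wild-type replicate 4, HMGN1 replicate 1 or HMGN1 replicate 4 gave 2 of the 10 genes apart, all higher: Igll1 with Blnk, Vpreb2 or Vpreb1. Of all genes, 6.14%, 6.52% and 5.3% were apart in that direction with these arrays left out, in that order.

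The genes fell into different profiles over the arrays. Likeness was measured as the root mean square difference of log2 values over the 8 arrays, after each gene's own mean was taken away; the arrays share 1 normalization and the genotype difference itself. The nearest to Igll1 were Vpreb2 (0.099) and Blnk (0.109), while Syk was at 0.243. The closest pair of all was Cd79a and Cd79b (0.034), followed by Cd79a and Btk (0.051) and Cd79b and Lyn (0.053). This measure is small for genes of little spread. The log2 SD over the 8 arrays was 0.105 for Cd79a and 0.082 for Cd79b, and both were lowest in wild-type replicate 3, as were Btk and Lyn. Vpreb1 was no nearer to Igll1 (0.178) than Btk was (0.175).

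**Figure D3:**
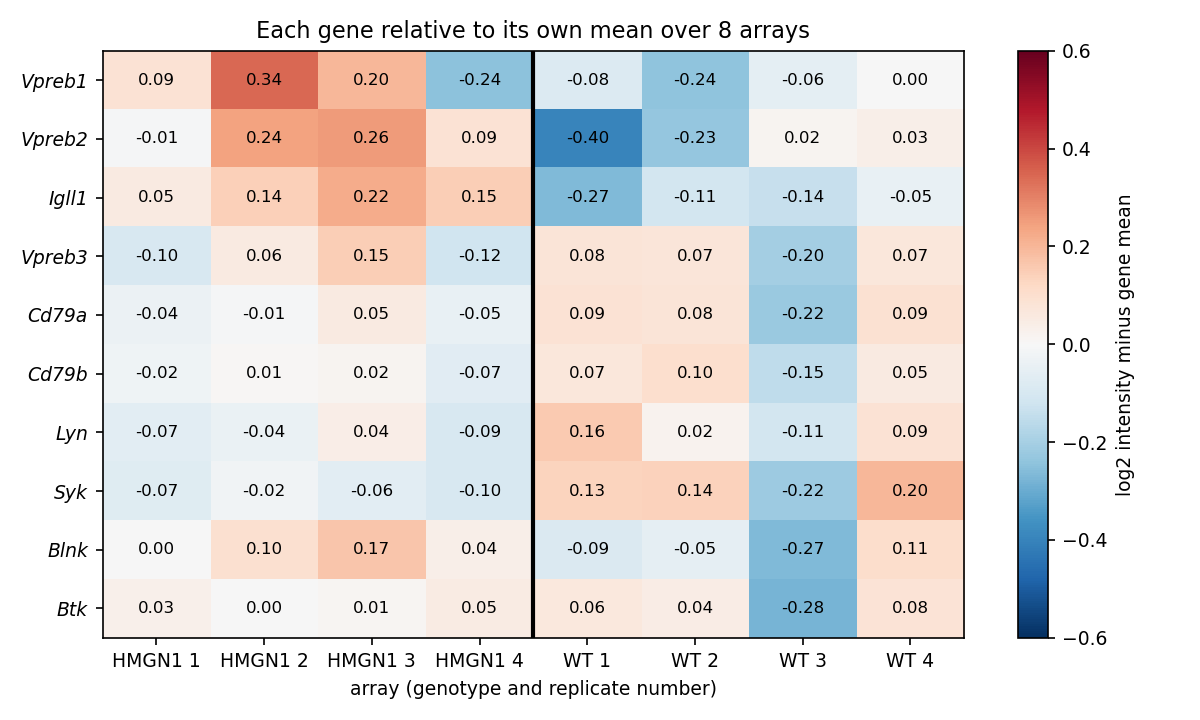
Log2 intensity of each gene (rows) on each array (columns, HMGN1-overexpressing left, wild-type right) minus the gene's mean over the 8 arrays, as colour and number. Igll1 is positive on the 4 HMGN1 arrays and negative on the 4 WT arrays, and the WT 3 column is negative for every gene but Vpreb2.

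**Figure D4:**
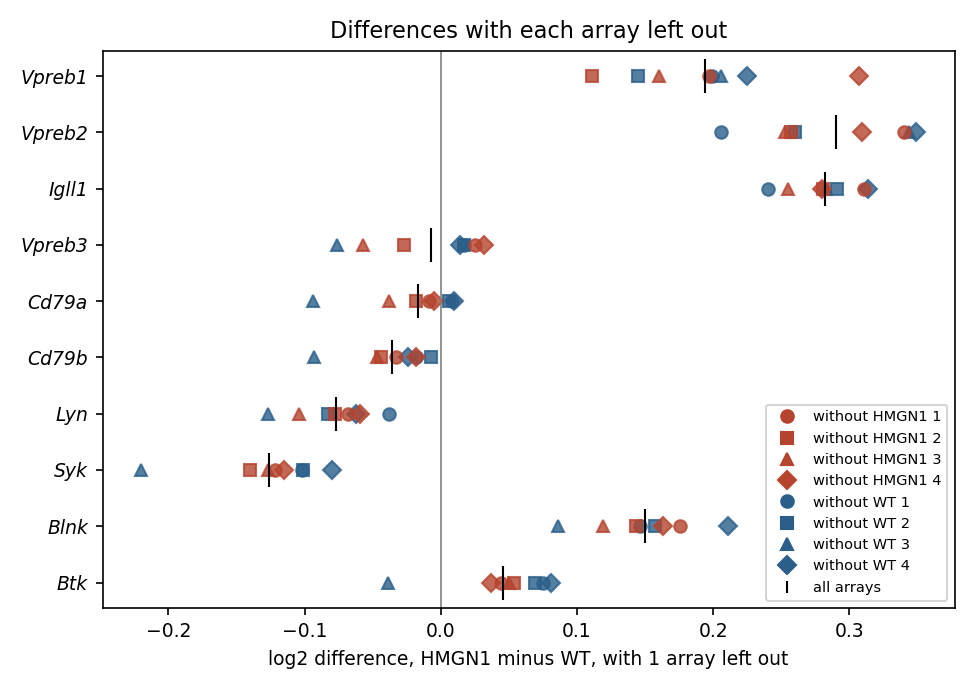
Log2 difference (x axis, HMGN1 minus WT) of each gene with each array left out in turn; colour gives the genotype and shape the replicate of the array left out, and the black bar the value with all arrays. Igll1 stays between 0.24 and 0.314 and Syk between -0.22 and -0.08, while Vpreb3, Cd79a and Btk have values on both sides of 0.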

How the data were processed

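The deposited values were RMA intensities on a linear scale, between 5.80 and 17578, 1 per Ensembl gene ID and array; RMA is named in the submitters' processing notes, and the linear scale was read from the values. The platform's gene definition and the probes are not given in the sources used here. Log2 of the intensity was fitted over all 8 arrays with limma 3.58.1 (R 4.3.3; lmFit, eBayes), with no filter and no block. P-values were adjusted over all 27835 genes by Benjamini-Hochberg, with a threshold of 0.05. Differences are HMGN1-overexpressing minus wild-type. Precision is limited by there being 4 arrays a group; the residual SD had a median of 0.121 for the 10 genes and 0.118 for all. No 2 arrays were copies, with at most 0.108% equal values. The fit was tested on simulated data in which the planted differences were larger than those of the 10 genes. That test does not measure the power to call differences as small as theirs.

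Genes named were all 10 members; their symbols came with the IDs that defined them. For pathway partners, other cell types and proB markers, 139 symbols in 15 lists could not be paired with IDs and were not analysed here, nor was likeness beyond the 10. Members and lists were chosen with earlier results of these data known. The alternatives tried were quantile normalization, subtraction of array medians, the replicate number as a block, only genes above the median signal, array weights, a variance prior with trend and robust fitting, an offset of 16 before the log, the first residual component as a covariate, Vpreb1 and Vpreb2 averaged, and leaving out each array.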

Additional observations from a re-analysis of the deposited data

Results flagged for a closer look

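In 4 of the 20 groups of 4 values examined (10 genes, 2 genotypes), 1 array lay far from the other 3. The cutoff of the rule by itself gives about 1 in normally distributed values. The share of all genes flagged by this rule was not computed. Wild-type replicate 3 was the lowest array for 37.4% of the 6959 brightest genes, so the count cannot be read as particular to these genes. All 4 were wild-type replicate 3, which was low. It stood at 1725 for Vpreb3, 6192.3 for Cd79a, 2766.3 for Syk and 1180.3 for Btk. Its gap to the nearest wild-type array was 0.965, 0.963, 0.842 and 0.901 of the group's range for these genes, in that order. The 4 genes share that array, so the flags are not independent.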

How the results depend on the processing

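No member was called under any alternative. Igll1 kept its direction under all 16, at 0.24 to 0.314 (limma adjusted p 0.0857 to 0.456), as did Vpreb1, Vpreb2, Cd79b, Lyn, Syk and Blnk. Much of this was fixed in advance. The replicate block, the signal filter, the variance prior and the first residual component leave each log2 difference unchanged by construction. Since the groups of Igll1 were apart, its sign also could not turn with array weights, the offset or 1 array left out. The sign turned for 3 genes near 0. Vpreb3 was 0.01 with array medians subtracted and -0.076 to 0.032 with 1 array left out. Cd79a ranged from -0.094 to 0.01 with 1 array left out. Btk was -0.003 with array weights and -0.039 to 0.081 with 1 array left out. The causes were not tested.

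At an unadjusted p under 0.05 by limma were 4 of the 10 members with the first residual component (Vpreb2, Igll1 and Blnk higher, Syk lower), where 15.7% of all genes were. With array weights there were 3 (Vpreb2 and Igll1 higher, Syk lower), where 11.2% of all genes were. With 1 array left out there were 1 to 3, against 8.14% to 10.9% of all genes. Members whose groups did not overlap numbered 1 to 4 with 1 array left out, against 9% to 11.5% of all genes in either direction. Igll1 is always among them, because its groups were apart with all arrays. Over all genes, 4 were called, 0 with the replicate block, 241 with the first residual component and 0 to 40 with 1 array left out. The first residual component was taken from the residuals of the same fit. Using it as a covariate takes out residual variance by construction and leaves the differences unchanged. Its 4 members and 241 genes are therefore not a like comparison with the main fit. The replicate block left the members' calls as they were, with Igll1 at a limma adjusted p of 0.379. Across genes, the deviations of same-numbered arrays from their group means had r = -0.078, -0.088, -0.237 and -0.095, which gives no sign of pairing by number. Vpreb1 was below the median signal and has no value there. The alternatives for pathway genes were not run, since their IDs were not paired. No signal over background was available, so the detection of the dim Vpreb1 row is unknown.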
